A study of Mus musculus with 6 samples.

Results

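p53 and its direct target genes, together with the CDK inhibitors of the *Cdkn2* locus, were examined in mDCT15 cells, a mouse line from the distal convoluted tubule of the kidney. The genes were taken by symbol from a list drawn up with earlier results of these data known. They were *Trp53*, *Mdm2*, *Cdkn1a*, *Cdkn2a*, *Cdkn2b*, *Ccng1*, *Bax*, *Bbc3*, *Phlda3* and *Zmat3*, and each of the 10 had 1 row among the 20624 genes of the deposited table. RNA was sequenced from 6 samples, of which 3 were wild type mDCT15 cells and 3 were *Pkd1-/-* mDCT15 cells made by CRISPR-Cas9 editing of the same line. The sample titles call the edited cells *Pkd1-/-* while the genotype field calls them a knockdown, and the number of clones behind them is not given in the sources used here. All cells were grown in DMEM/F12 with serum and antibiotics, without a further treatment.

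The values described here are the authors' mean normalized counts, 1 per gene, taken over the 6 samples of both genotypes together. A normalized count is the number of reads of a gene divided by the size factor of its library. The values of single samples and the authors' own comparison of the genotypes were not used here, so no difference between *Pkd1-/-* and wild type cells is given for any gene, and the spread between samples and the depth of each library are unknown. The order of levels below is therefore a description of the pooled cells, without a test. A gene that is high in 1 genotype and absent in the other cannot be told apart from a gene at the same level in both.

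p53, encoded by *Trp53*, is a transcription factor that is held at a low protein level by the ubiquitin ligase Mdm2 and is stabilised when DNA is damaged or when an oncogene is active. It then binds DNA as a tetramer and activates genes that arrest the cell cycle, repair DNA, limit growth signals or start apoptosis, and among these targets is *Mdm2* itself, which closes a feedback loop. The *Cdkn2a* gene lies upstream of p53 in this network. From separate first exons and a shared second exon it encodes p16Ink4a, an inhibitor of Cdk4 and Cdk6, and p19Arf, which blocks Mdm2. *Cdkn2b* encodes p15Ink4b, a related inhibitor, and *Cdkn1a* encodes p21, a direct p53 target that inhibits cyclin-dependent kinases. Established cell lines often lose part of this network, and the state of p53 also bears on how cells respond to a cut by Cas9.

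The DNA sequence bound by p53 is a pair of adjoining 10-base units, each with purines, a C, A or T bases, a G and pyrimidines in that order. Matches to this consensus, with an intact C and G in both units and at most 2 mismatches at the other bases, were searched for within 3 kb on each side of the annotated start site of each gene on GRCm39. The consensus reads the same on both strands. Such a match was found for 5 of the 10 genes, against 1298 (6.45%) of the 20122 genes of the table that have a position in the annotation. Most of the 10 genes were listed because they are direct p53 targets, so a share above that of all genes is no result about them. *Cdkn2b*, which is among the 5, was listed as a CDK inhibitor and not as a p53 target. The matches are shown because binding to such elements is what makes a gene a direct p53 target. They are written 5′ to 3′ on the strand of the gene, and the capitals mark the core of each unit.
*Zmat3*: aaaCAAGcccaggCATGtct
*Cdkn1a*: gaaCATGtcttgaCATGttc
*Ccng1*, upstream of the start: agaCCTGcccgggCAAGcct
*Ccng1*, in an intron: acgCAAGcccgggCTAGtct
*Cdkn2b*: agaCATGtccggtCTTGctc
*Bax*: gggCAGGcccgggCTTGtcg

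The element of *Zmat3* had 0 mismatches. It lies 1418 bp downstream of the canonical start site, at chr3:32418480-32418499 on the minus strand. It overlaps an exon of at least 1 annotated transcript of the gene, not necessarily the canonical transcript. The element of *Cdkn1a* had 1 mismatch and lies 2826 bp upstream of the start of the canonical transcript, outside the annotated gene, at chr17:29309902-29309921 on the plus strand. *Ccng1* had an element on each side of its start site, each with 1 mismatch, 160 bp upstream at chr11:40646289-40646308 and 366 bp downstream in an intron at chr11:40645763-40645782, both on the minus strand. The element of *Cdkn2b* had 1 mismatch and lies in an intron 2630 bp downstream of the start, at chr4:89226637-89226656 on the minus strand. That of *Bax* had 2 mismatches and lies 318 bp downstream of the start, at chr7:45115998-45116017 on the minus strand. It likewise overlaps an exon of at least 1 annotated transcript of *Bax*.

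**Figure D1:**
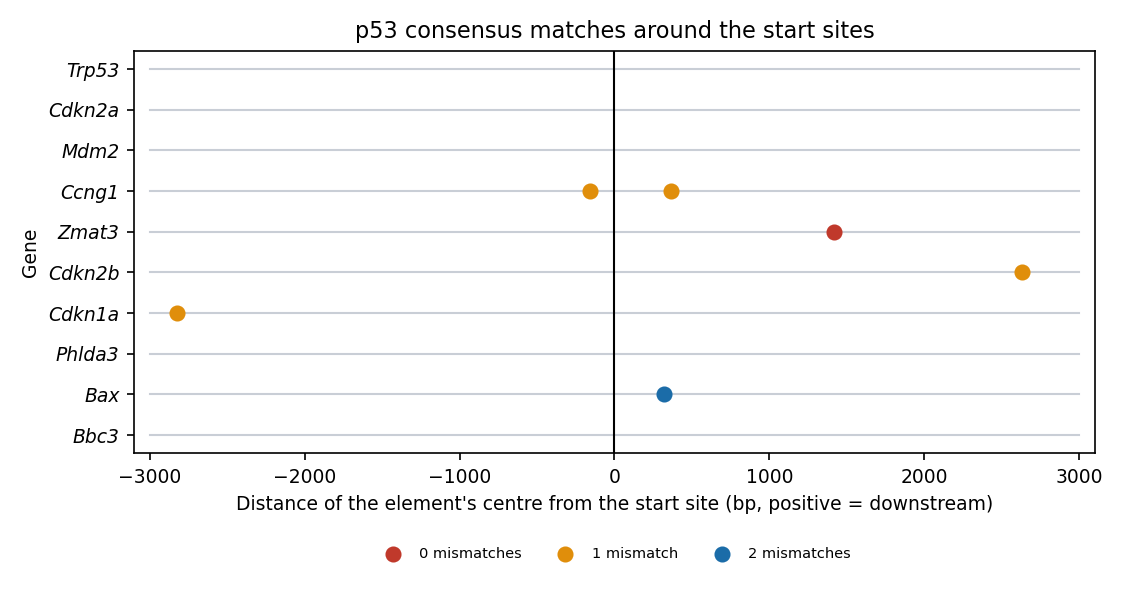
Position of each match to the p53 consensus (points, coloured by the number of mismatches) relative to the annotated start site (vertical line), with distance in bp on the x axis and 1 gene per row. The matches lie between 2826 bp upstream (*Cdkn1a*) and 2630 bp downstream (*Cdkn2b*), and 5 genes have none at this limit.

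With at most 1 mismatch allowed, 4 of the 10 genes kept a match, against 1.09% of all genes, and with at most 3 mismatches 8 genes had one, against 26.5%. *Trp53*, *Mdm2* and *Bbc3* were reached only at 3 mismatches. *Cdkn2a* and *Phlda3* had no match at any of these limits. In a list of 27 other p53 target genes, 9 (33.3%) had a match with at most 2 mismatches. A match is a stretch of letters and not a measured binding site, and the absence of one says nothing about elements outside the window or with a gap between the units.

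All 10 genes were found in the sequenced RNA, with mean normalized counts that ran from 80.4 for *Bbc3* to 3767 for *Trp53*. Of the 20624 genes, 13724 had a mean of 10 or more, and the median of these stood at 492.0, and 5 of the 10 genes were above it. These were *Trp53*, *Cdkn2a*, *Mdm2*, *Ccng1* and *Zmat3*, while *Cdkn2b*, *Cdkn1a*, *Phlda3*, *Bax* and *Bbc3* were below. These counts are not divided by length, so a long gene collects more reads than a short one at the same level, and the places change per kilobase as given further on. Against the median of all genes in the table, 104.5, 9 of the 10 were above.

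**Figure D2:**
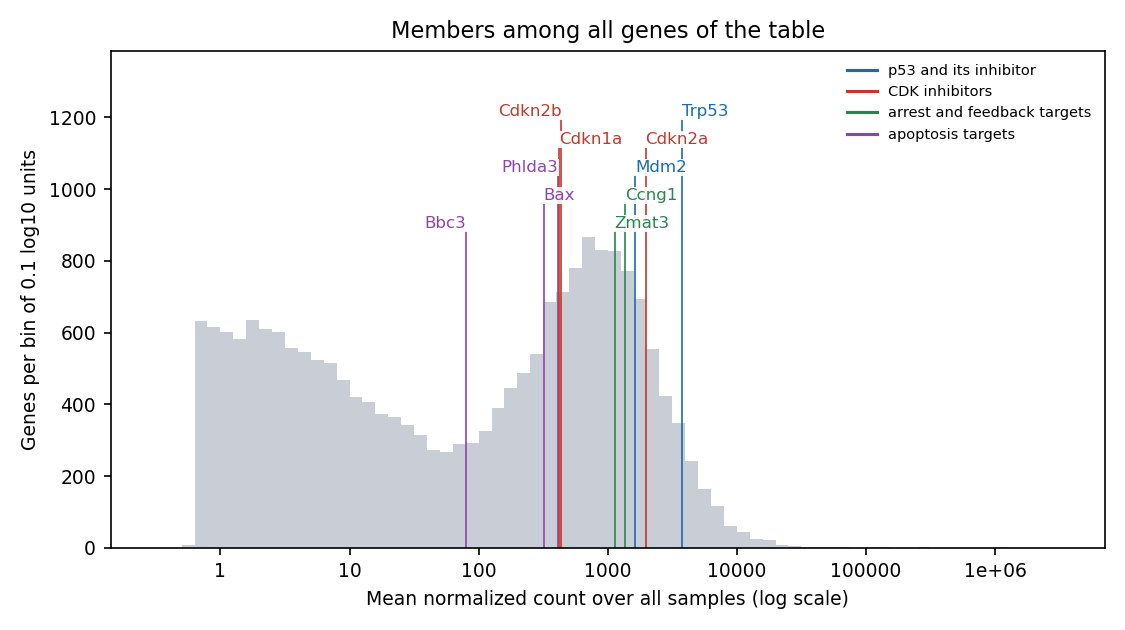
Histogram of the mean normalized counts of all genes in the table (x axis, log scale; y axis, genes per bin of 0.1 on the log10 scale), with a coloured line for each of the 10 genes, by role. *Bbc3* at 80.4 is the lowest, *Cdkn1a*, *Phlda3* and *Cdkn2b* lie close together between 415 and 437, and *Trp53* at 3767 is the highest.

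*Trp53* (ENSMUSG00000059552, chromosome 11 from 69469669 to 69482701, plus strand) had a mean normalized count of 3767. This was rank 774 of all genes, above 94.4% of the genes whose mean reached 10. Its start overlaps *Wrap53* on the opposite strand, whose own mean was 486, and exons of *Wrap53* and *Gm57392* cover 5.68% of the exonic bases of *Trp53*. The transcript of p53 was thus abundant in the pooled cells. An RNA level says nothing about the amount, activity or sequence of the protein, which is controlled mostly after translation.

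*Mdm2* (ENSMUSG00000020184, chromosome 10 from 117524780 to 117546730, minus strand) had a mean normalized count of 1638, at percentile 80.9 of the same genes. Its paralogue *Mdm4*, which binds and restrains p53 without being its main ligase, had a mean of 1624. Per kilobase of merged exons, *Mdm2* stood at 212 and *Mdm4* at 79.6. The ratio of *Mdm2* to *Mdm4* per kilobase was 2.67 with merged exons and 1.05 with the longest coding sequence, so its size rested on the length used. Exons of *Gm56970*, on the opposite strand, cover 4.51% of the exonic bases of *Mdm2*.

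*Ccng1* (ENSMUSG00000020326, chromosome 11 from 40639377 to 40646148, minus strand) encodes cyclin G1, a p53 target that recruits a phosphatase to Mdm2. Its mean normalized count was 1362, at percentile 76.5. *Zmat3* (ENSMUSG00000027663, chromosome 3 from 32388941 to 32420163, minus strand), a p53 target that encodes an RNA-binding zinc finger protein, had a mean of 1131, at percentile 71.6. Exons of *Nudcd2* on the opposite strand cover 2.59% of the exonic bases of *Ccng1*, and no other gene overlaps the exons of *Zmat3*.

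Of the 3 CDK inhibitor genes, *Cdkn2a* (ENSMUSG00000044303, chromosome 4 from 89192708 to 89212890, minus strand) had a mean normalized count of 1963, at percentile 85.0. *Cdkn2b* (ENSMUSG00000073802, chromosome 4 from 89223204 to 89229276, minus strand) had a mean of 437, at percentile 47.4. *Cdkn1a* (ENSMUSG00000023067, chromosome 17 from 29309936 to 29319701, plus strand) had a mean of 418, at percentile 46.3. By its count the p21 gene, the best known p53 target, was thus a little under the median gene, a place that turned with the length used once levels were taken per kilobase. Exons of *Dino* and *Gm64878*, on the opposite strand, cover 12.5% of the exonic bases of *Cdkn1a*, and *Dino* itself had a mean of 0.875.

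Reads of *Cdkn2a* were counted for the gene as a whole. Its annotation has 2 transcripts and 4 merged exons. The transcripts of p16Ink4a and p19Arf have separate first exons and share later ones, so the mean of the gene cannot be divided between them. *Cdkn2a* and *Cdkn2b* lie 10.3 kb apart on the same strand. Within 300 kb of them the table held *Mtap*, which encodes the enzyme that salvages methionine from methylthioadenosine and is often lost together with *Cdkn2a*, at a mean of 1929, and the long non-coding gene *Gm12610*, which spans *Cdkn2b* on the opposite strand, at 26.9. The 4 other non-coding genes there had means from 1.38 to 15.8. *Cdkn2a*, *Cdkn2b* and *Mtap* were the 3 protein-coding genes of the region in the table. A mean over both genotypes shows that reads of each were counted in some of the samples. It cannot tell whether either genotype lacks any of them.

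**Figure D3:**
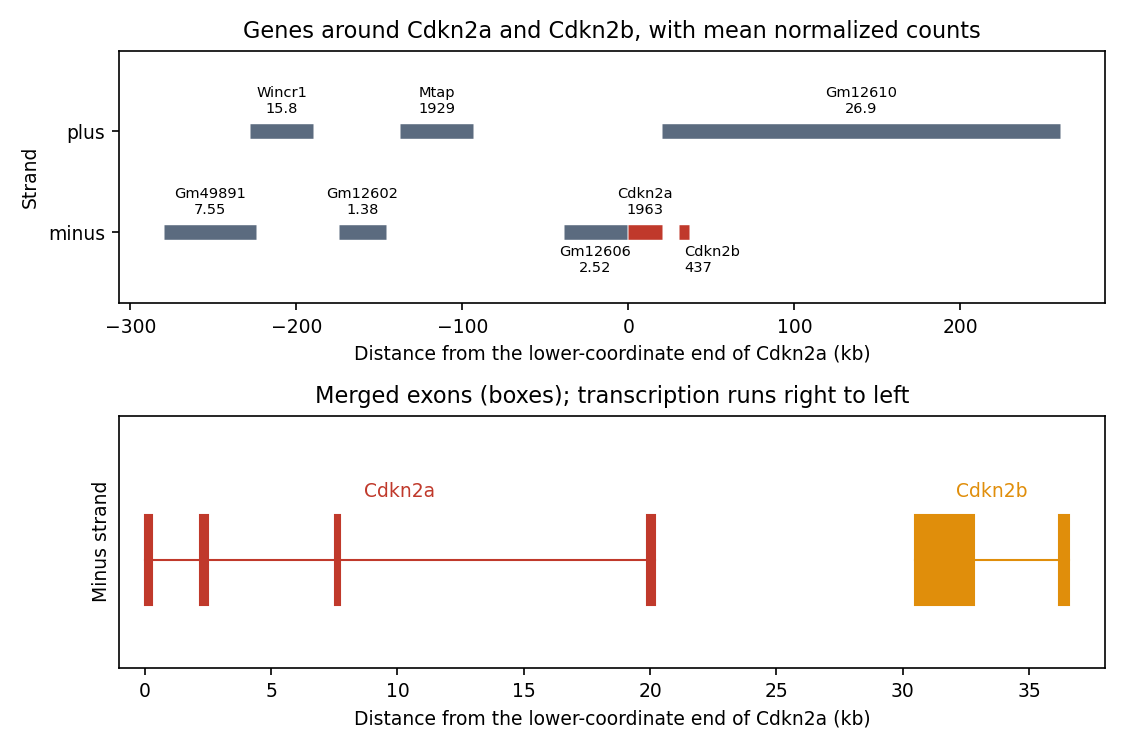
Upper panel, genes of the table within 300 kb of *Cdkn2a* and *Cdkn2b* by strand, with the mean normalized count under each name and the distance from the lower-coordinate end of *Cdkn2a* in kb on the x axis. Lower panel, merged exons of *Cdkn2a* and *Cdkn2b*, with distance from the same zero point on an enlarged scale. *Mtap* (1929) and *Cdkn2a* (1963) have the highest counts of the region.

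Of the p53 targets of apoptosis, *Bax* (ENSMUSG00000003873, chromosome 7 from 45111015 to 45116325, minus strand), whose product opens pores in the outer mitochondrial membrane, had a mean normalized count of 319, at percentile 40.5. Its exons share 10.3% of their bases with *Gm45808* on the same strand and 3.23% with *Gm73431* on the opposite strand. Reads that fall in exons of both genes are left out by the counting method at its default, and the effect on the mean of *Bax* was not tested. *Phlda3* (ENSMUSG00000041801, chromosome 1 from 135693809 to 135697686, plus strand), which encodes a small protein that keeps Akt from the membrane, had a mean of 415, at percentile 46.1. *Bbc3* (ENSMUSG00000002083, chromosome 7 from 16042318 to 16052130, plus strand), which encodes Puma, a BH3-only protein that frees Bax and Bak, had a mean of 80.4, at percentile 22.4.

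The order changed when length was taken into account. Per kilobase of merged exons, *Cdkn2a* was the highest of the 10 at 1675 and at percentile 98.7 of the genes whose mean reached 10, with exons that add up to 1.17 kb. *Trp53* followed at 510 and *Ccng1* at 310. *Mdm2* stood at 212, *Bax* at 172, *Cdkn2b* at 161, *Phlda3* at 160 and *Zmat3* at 98.8. With merged exons, *Cdkn1a* at 69.2 and *Bbc3* at 16.8 were under 80.9, the median of all such genes per kilobase, and the other 8 were above it. *Cdkn2b* and *Phlda3* were nearly equal, and no spread is known by which their order could be judged.

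Annotated genes with many transcripts have long merged exons, such as 7.38 kb for *Trp53* with 27 transcripts, so lengths of single transcripts were also used. All lengths come from a different annotation release than the one on which the reads were counted. With the length of the Ensembl canonical transcript, *Cdkn2a* stood at 2304 per kilobase and *Trp53* at 2036, so the gap between them was smaller than with merged exons. *Cdkn1a* then stood at 217, above *Cdkn2b* at 161, the reverse of their order with merged exons. Against the genes whose mean reached 10, *Cdkn1a* was at percentile 45.8 with merged exons and 45.6 with the longest transcript, below the median gene. It was above it with the canonical transcript, at 60.2, and with the longest coding sequence, at 72.5. Reads of untranslated exons are in the counts, so dividing by coding sequence raises most the genes with long untranslated parts. That last percentile is also among genes with a coding sequence only. *Zmat3* was at percentile 55.5 with merged exons and 48.0 with the canonical transcript. *Cdkn2a* was the highest, *Trp53* the next and *Bbc3* the lowest of the 10 with each of the 4 lengths tried. The ratio of *Cdkn2a* to *Bbc3* ran from 30.8 with the longest coding sequence to 99.8 with merged exons.

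**Figure D4:**
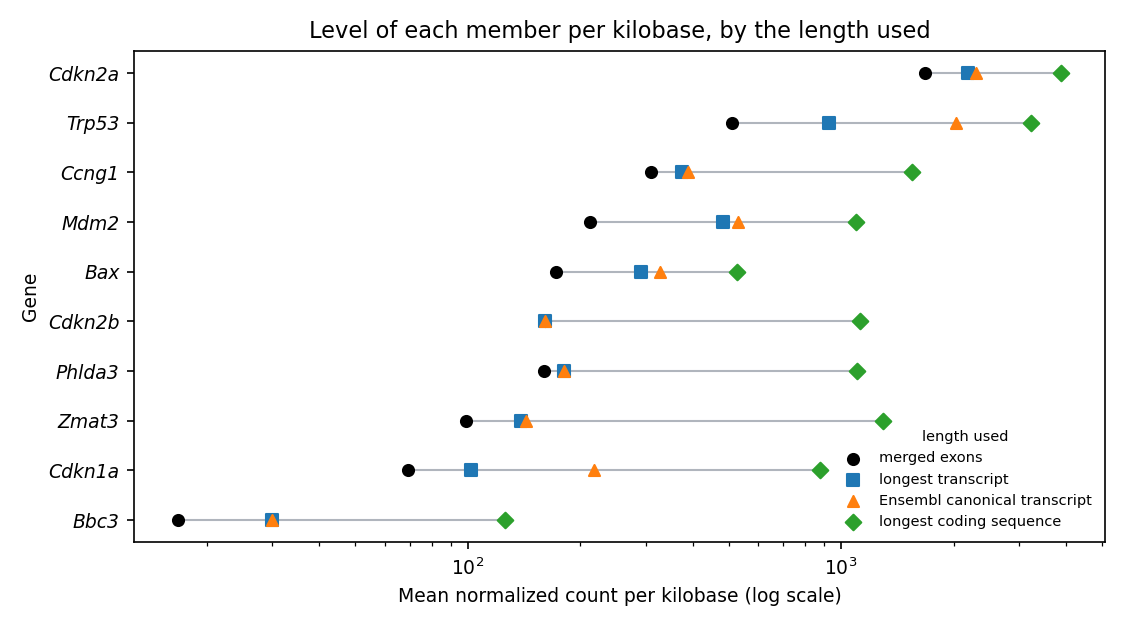
Mean normalized count per kilobase (x axis, log scale) of each of the 10 genes with the length taken from merged exons, the longest transcript, the Ensembl canonical transcript or the longest coding sequence (symbols); the grey line joins the values of 1 gene. *Cdkn2a* is at the top and *Bbc3* at the bottom for every length, while genes between them change places. *Mdm2* has rank 4 of the 10 with merged exons and rank 7 with the longest coding sequence, and *Bax* ranks 5 and 9. *Cdkn1a* is above *Zmat3* with the canonical transcript only.

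Between *Cdkn2a* and *Cdkn2b* the ratio per kilobase was 10.4 with merged exons and from 3.45 to 14.3 over the lengths tried, so *Cdkn2a* was above its neighbour with each. Between *Cdkn2a* and *Cdkn1a* it was 24.2, and from 4.42 to 24.2 over the lengths. The kinase gene *Cdk4*, whose product p16Ink4a binds, was higher still, at 2028 per kilobase, which was 1.21 times *Cdkn2a* with merged exons and up to 1.98 times over the lengths. *Trp53* exceeded *Mdm2* by a ratio of 2.40 per kilobase, and by 1.92 to 3.85 over the lengths.

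The other CDK inhibitor genes, which are not known mainly as p53 targets, were also in the table. *Cdkn2c*, which encodes p18Ink4c, had a mean normalized count of 2510 and stood at 395 per kilobase. *Cdkn1b*, which encodes p27, had a mean of 2386 and 524 per kilobase. *Cdkn1c*, which encodes p57 and is imprinted, had a mean of 1842 and 855 per kilobase, and *Cdkn2d*, which encodes p19Ink4d, had a mean of 367 and 221 per kilobase. All 4 were above *Cdkn1a* per kilobase of merged exons, and 3 of 4 were above the median gene by their mean. By its count, *Cdkn2d* at 367 was below *Cdkn1a* at 418. The value of *Cdkn1a* per kilobase turned on the length, from 69.2 with merged exons to 877 with the longest coding sequence, which leaves out untranslated exons. Of the 4 genes, *Cdkn1b* alone was set against *Cdkn1a* with the other lengths. It exceeded *Cdkn1a* by 2.41 to 7.58 times per kilobase over the lengths tried.

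All of the 27 other p53 targets were in the table. Of these, 23 had a mean of at least 100, 14 were above the median gene, and their median was 544, against 784 for the 10 genes described here and 492.0 for all genes whose mean reached 10. *Plk2*, a kinase gene, at 5778, and the antiproliferative gene *Btg2*, at 3047, were the highest. *Sfn*, which encodes the 14-3-3 sigma protein of epithelia, at 9.43, and *Eda2r*, a receptor gene, at 10.9, were the lowest. The means of p53 targets thus ran from 9.43 to 5778.

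By counts not divided by length, 13 of the 15 regulators and relatives of p53 were above the median gene. Per kilobase of merged exons their median was 84.6, close to the 80.9 of all genes whose mean reached 10. The acetyltransferase genes *Crebbp*, at 5434, and *Ep300*, at 3954, had the highest means. The p53 relatives *Trp63* and *Trp73* were close to the lowest mean in the table, 0.618, with 0.651 and 1.14. *Trp53* was the member of its family with a level above a few counts in these cells.

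Among 12 other genes of the BCL2 family, 11 were in the table and 4 were above the median gene. The survival gene *Mcl1* had the highest mean, 4465. *Bak1*, which encodes the other pore-forming protein, had a mean of 2015, and per kilobase it was 4.87 times *Bax* with merged exons and from 2.58 to 6.10 times over the lengths tried. The survival gene *Bcl2l1*, with a mean of 1811, also exceeded *Bax* per kilobase, by 2.05 times with merged exons. *Hrk*, a BH3-only gene of neurons, at 2.97, and *Bmf*, another BH3-only gene, at 104, were the lowest, and *Bbc3* was below *Bmf* both as a count and per kilobase of merged exons, with 16.8 against 19.8. *Bik* was not in the table.

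**Figure D5:**
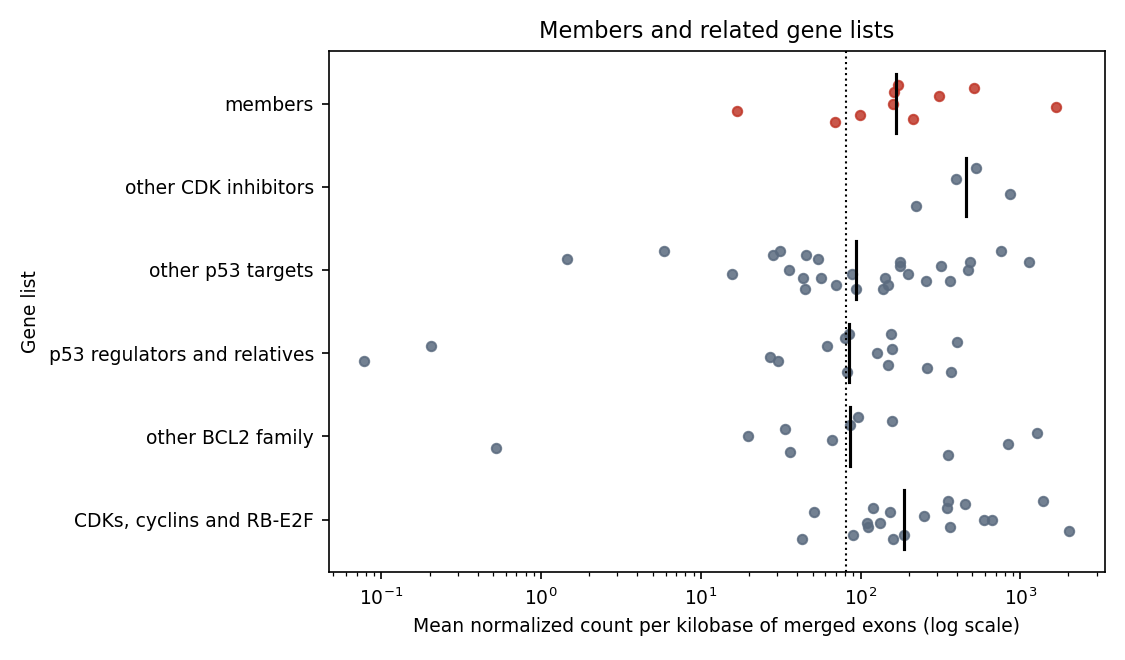
Mean normalized count per kilobase of merged exons (x axis, log scale) of each gene in the table (points) for the 10 genes described (members) and 5 related lists (rows), with the median of each list as a black bar; the dotted line is the median of genes whose mean reached 10. The medians are 166 for the members and 459 for the other CDK inhibitors, against 80.9 for the dotted line. Those of the remaining lists are 93.2 for other p53 targets, 84.6 for p53 regulators, 86.1 for other BCL2 genes and 188 for CDKs, cyclins and RB-E2F.

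Facts of the whole table bear on these values as follows. *Pkd1* had a mean of 3175 over both genotypes, which cannot check the editing. Of 11 genes that mark the distal convoluted tubule, 6 were in the table, with *Stk39* at 621 and *Kcnj16* at 428 the highest and *Klhl3* at 5.70 and *Trpm6* at 29.6 the lowest, and the defining genes *Slc12a3* and *Pvalb* were not among them. Of 7 epithelial markers 5 were in the table, with *Pax8* at 4905 and *Cdh16* at 4680 the highest and *Krt8* at 0.980 and *Epcam* at 115 the lowest, while *Cdh1* and *Krt18* were not in the table. Of the 4 proximal tubule markers, *Aqp1* at 11355 and *Lrp2* at 8826 were high, and *Slc34a1* at 2.04 and *Slc5a2* at 2.77 were low. Of 5 collecting duct and thick limb markers *Scnn1g* alone was in the table, at 0.618, and of 6 fibroblast, endothelial and blood markers 5 were, the highest being *Col1a1* at 201 and *Cd68* at 41.9 and the lowest *Pdgfrb* at 4.48 and *Pecam1* at 4.68.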

How the data were processed

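Total RNA was depleted of ribosomal RNA, and paired reads of 42 bases were made. Per the labels and the methods, the authors trimmed reads with Trim Galore 0.4.5, mapped them with STAR 2.7.5a to GRCm39 (annotation of Ensembl release 105), used HTSeq 0.11.0 at default parameters for counts per gene and ran DESeq2 1.22.0 in R 3.5.3. The deposited table gives, per gene, a mean normalized count, which is a signal: counts divided by size factors and averaged over all 6 samples by the authors. Its other columns hold the authors' comparison of the genotypes (fold changes, standard errors, Wald statistics and p-values) and were not used. Neither depth nor spread per sample is known from the mean, so it has no error, and no test was run. The stated minimum of 5 counts per sample does not show in the table, where 5385 genes have a mean under 5. The kit keeps strand, but the strand setting is not given beyond the default, so opposite-strand overlaps are listed.

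Levels were placed among the genes whose mean reached 10 and divided by merged exon length from GENCODE M39 (GRCm39), which held 20122 (97.6%) of the identifiers. Reads had been counted on Ensembl release 105, a different annotation release. Exons found in GENCODE M39 alone add length without reads, and the effect on levels per kilobase was not tested. Overlaps of exons were also taken from GENCODE M39, so a listed gene absent from release 105 could not have affected the counts. Where a symbol has more than 1 identifier (7 symbols, none of the 10 genes), the highest mean was kept. Exon stretches of at least 42 bases found elsewhere in the genome (blastn 2.17.0, exact matches) covered from 0 to 4.86% of the exonic bases of the 10 genes, the most in *Mdm2*. The percentiles and the search for p53 elements were checked on simulated data, in which the planted elements had no mismatches. The blastn search was not checked in this way. The 10 genes and the lists were chosen with earlier results of these data known. All 10 genes were named, with the 2 highest and 2 lowest of each list, every other CDK inhibitor, and genes that overlap them. Further genes (*Mdm4*, *Bak1*, *Bcl2l1*, *Mtap* and the genes around *Cdkn2a*) were named after their values were seen. Alternatives were other sets of reference genes, other lengths and other mismatch limits. Python 3.11.15, numpy 2.4.6, pandas 2.3.3, pysam 0.24.0 and matplotlib 3.10.9 were used.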

Additional observations from a re-analysis of the deposited data

How the results depend on the processing

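The placing of the genes depended on what they were set against. Their median percentile was 59.5 among genes whose mean reached 10, 73.0 among all genes of the table and 46.5 among genes whose mean reached 100. The number above the median gene was 5 as counts, 9 against the median of all genes, 5 against genes whose mean reached 100, and 8 per kilobase of merged exons. Their median value per kilobase was 166 with merged exons, 236 with the longest transcript, 272 with the canonical transcript and 1114 with the longest coding sequence. The same counts were divided each time, so these values differ by the divisor alone and are not a change of level. The canonical transcript was chosen after seeing the data, as was the search for p53 elements with its mismatch limits. No paired analysis was possible because the mean pools all samples. Leaving out a replicate, other normalizations and a filter on counts of single samples were not run for the same reason.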

Other observations

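Genes whose products repress *Cdkn2a* in other cells were also measured. Of 7 Polycomb and T-box genes listed, 6 were in the table and 4 were above the median gene. The Polycomb subunit genes *Suz12*, at a mean normalized count of 4589, and *Ezh2*, at 2295, were the highest, while *Cbx8* stood at 402, the T-box gene *Tbx2* at 11.9, and *Tbx3* was not in the table. These values are means over the same samples in which *Cdkn2a* stood at 1963.

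All of the 19 genes of CDKs, cyclins and the RB-E2F group were in the table, and 16 were above the median gene. *Cdk4* at 6977 and *Ccna2* at 5646 had the highest means. The D-type cyclin genes *Ccnd1* at 243 and *Ccnd2* at 407 had the lowest, and *Ccnd3* stood at 1216. Per kilobase of merged exons the order of the D-type cyclins was *Ccnd3* at 132, *Ccnd1* at 50.9 and *Ccnd2* at 43.2.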
